A study of Mus musculus with 10 samples.

Results

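Amino acid transporters of the Slc1, Slc3, Slc6, Slc7, Slc36, Slc38 and Slc43 families were compared between whole kidneys of 5 Lkb1 knockout mice, in which the deletion is directed to tubules, and 5 control kidneys. The members were all genes whose only symbol in the annotation of the array began with Slc1a, Slc3a, Slc6a, Slc7a, Slc36a, Slc38a or Slc43a, which gave 62 of the 30142 genes measured. They comprised 7 genes of Slc1, 2 of Slc3, 19 of Slc6, 16 of Slc7, 4 of Slc36, 11 of Slc38 and 3 of Slc43. The symbol rule also took in Slc7a6os, which neighbours Slc7a6 and is not a transporter, Slc43a3, a transporter of purine bases, and the monoamine transporters of Slc6.

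The knockouts (Lkb1Δtub) came from Lkb1flox/flox mice crossed to KspCre mice, in which Cre is driven by Cdh16, a cadherin gene of kidney tubule cells, so that deletion of Lkb1 (gene symbol Stk11) is directed to tubule cells. This Cre is known to act most strongly in distal tubules and collecting ducts and less in the proximal tubule, and a whole kidney also holds cells that keep Lkb1. The control littermates were Lkb1flox/+ or Lkb1flox/flox and had no KspCre transgene, so Cre itself and loss of Lkb1 cannot be told apart. All mice were 5 weeks old, with the strain given as C57Bl/6N and the floxed line as mixed, and sex was not stated. The titles and the condition field say knockdown where the protocol describes a knockout, and the design text names MDCK cells, although every array was made from mouse kidney. Each array gave RMA values, which are log2 expression values normalised across arrays.

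Amino acids filtered by the glomerulus are taken back almost completely by the proximal tubule. Sodium-coupled and exchange transporters of the brush border bring them into the cell, and exchangers and uniporters of the basolateral membrane release them to the blood. Light chains of the Slc7 family reach the membrane bound to a heavy chain of the Slc3 family. Other members carry glutamine for ammonia production, creatine, or the osmolytes taurine and betaine.

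Stk11 was lower in every knockout kidney, at 9.12, 9.21, 9.07, 9.21 and 9.31 in knockouts 1 to 5, against 9.43, 9.40, 9.48, 9.46 and 9.40 in controls 1 to 5 (limma adjusted p = 0.00749). Any pair of arrays correlated at 0.992 to 0.998. None of the 22 proximal tubule genes and none of the 15 genes of later segments measured was below the median negative control probe set in both groups. Knockout 5 lay nearest the control mean among the knockouts for 4 of the 7 members that passed the test, and knockout 3 lay farthest from it for 5 of the 7. Knockout 5 also had the highest Stk11 value of the knockouts, and members or list counts that crossed the threshold without it are named beside their values. The arrays were separate mice, so p-values measure the spread between animals.

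Of the 62 transporter genes, 3 rose and 4 fell in the knockouts, and 55 did not pass (limma, Benjamini-Hochberg adjusted p under 0.05 over all genes). The risers were the glutamine transporter Slc38a3, the system A transporter Slc38a4 and the cationic amino acid transporter Slc7a2. The genes that fell were the cystine and acidic amino acid transporter Slc7a13, the vesicular transporter Slc6a17, the uniporter Slc43a2 and the creatine transporter Slc6a8. Across all genes 8.03% passed, 5.35% higher and 2.67% lower, so the share of members that passed (11.3%) was near the background. The median log2 difference, knockout minus control, was -0.05 over the members and -0.03 over all genes. The knockout and control values did not overlap for 6 members, the 3 risers and, among lower genes, Slc7a13, Slc6a17 and the dim glutamate transporter Slc1a3, which did not pass. The groups did not overlap for 8.57% of all genes, 5.07% higher and 3.50% lower.

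**Figure D1:**
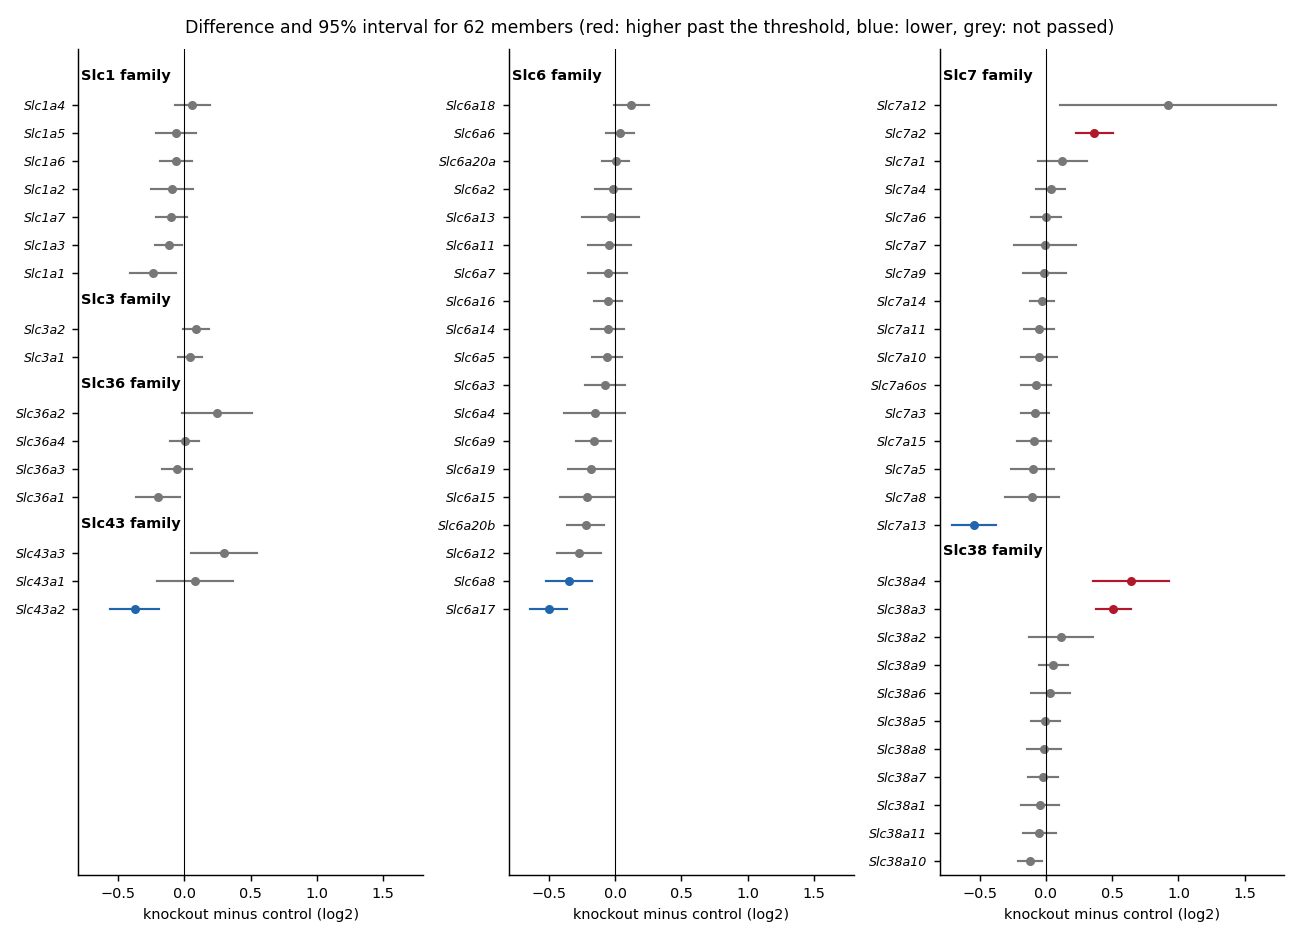
Difference between knockout and control kidneys (knockout minus control, log2) with its 95% interval for each of the 62 genes, in order of size within each family. The 3 genes in red rose and the 4 in blue fell past the threshold, and Slc7a12 has by far the widest interval.

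By family, Slc38 held 2 of the 3 rises and no fall, with 9 members not past the threshold, whereas Slc6 held 2 of the 4 falls and no rise, with 17 not past it. One direction did not hold through Slc7, in which Slc7a2 rose, Slc7a13 fell and 14 genes did not pass. In Slc43, Slc43a2 fell and 2 genes did not pass. None of the 7 Slc1 genes, the 2 Slc3 genes or the 4 Slc36 genes passed by limma. Before adjustment, p was under 0.05 for 0 higher and 2 lower genes in Slc1, 0 and 0 in Slc3, and 0 and 1 in Slc36. Median differences were -0.09 in Slc1, 0.06 in Slc3, -0.06 in Slc6, -0.04 in Slc7, -0.03 in Slc36, -0.00 in Slc38 and 0.08 in Slc43. A total of 19 members had a positive difference and 43 a negative one, and negative differences also prevailed over all genes (11522 positive and 18620 negative). Before adjustment, p was under 0.05 for 5 members that were higher and 13 that were lower, and for 23.0% of all genes, 10.9% higher and 12.0% lower.

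For the members that changed, RefSeq promoter sequences (GRCm38.p6, 250 bases before to 50 after the start) were at hand for Slc38a4, which rose, and for Slc43a2 and Slc6a17, which fell. Each is shown at the outermost 5′ start among the promoter entries at hand, which for Slc43a2 lies inside the annotated gene and not at its 5′ end, as one of the regions in which regulators of these genes could be sought. Slc38a4 is on the minus strand at chr15:97055907.0-97056206.0, Slc43a2 on the plus strand at chr11:75531444.0-75531743.0 and Slc6a17 on the minus strand at chr3:107517969.0-107518268.0. Capitals mark TGACG, the half-site bound by CREB, and CCAAT, on either strand. As background, kinases activated by Lkb1 restrain the coactivators of CREB.
Slc38a4: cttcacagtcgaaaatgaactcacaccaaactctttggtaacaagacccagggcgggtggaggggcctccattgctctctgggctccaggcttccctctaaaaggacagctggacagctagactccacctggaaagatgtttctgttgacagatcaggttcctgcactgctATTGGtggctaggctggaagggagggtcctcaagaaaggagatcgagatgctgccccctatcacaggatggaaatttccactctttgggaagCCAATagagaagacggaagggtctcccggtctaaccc
Slc43a2: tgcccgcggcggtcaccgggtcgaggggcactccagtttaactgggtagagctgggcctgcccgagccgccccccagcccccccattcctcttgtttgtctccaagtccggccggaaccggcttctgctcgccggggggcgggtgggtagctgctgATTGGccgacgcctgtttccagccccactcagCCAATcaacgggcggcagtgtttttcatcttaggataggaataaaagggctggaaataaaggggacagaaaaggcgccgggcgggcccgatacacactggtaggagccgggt
Slc6a17: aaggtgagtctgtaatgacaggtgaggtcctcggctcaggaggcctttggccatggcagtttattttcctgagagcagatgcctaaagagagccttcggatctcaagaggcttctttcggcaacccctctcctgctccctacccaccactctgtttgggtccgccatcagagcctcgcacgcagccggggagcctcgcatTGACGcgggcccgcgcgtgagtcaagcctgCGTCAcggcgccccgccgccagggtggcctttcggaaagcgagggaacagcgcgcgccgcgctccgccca
In the window shown, Slc6a17 held 2 CREB half-sites and 0 CCAAT boxes, whereas Slc38a4 and Slc43a2 each held 0 half-sites and 2 CCAAT boxes. Slc38a4 has 3 listed starts, and a start not shown here does hold a half-site. The half-site was present in 25.8% of the 66 promoters listed for 45 members and in 20.8% of all 32851 promoters, and CCAAT in 28.8% and 37.4%. The element TGATGNAA, through which ATF4 acts on genes of amino acid supply, was found for Slc1a4, Slc7a11 and Slc7a7, and in 3.97% of all promoters. Both strands were searched and each motif was counted on its own, so letters shared by overlapping motifs counted for each. These matches describe letters only.

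Slc38a3 (SNAT3) takes up glutamine across the basolateral membrane of proximal tubule cells, where it feeds ammonia production, and is known to be induced in acidosis. The gene lies on chromosome 9 at 107651154 to 107668968. Its values were 11.25, 11.31, 11.09, 11.32 and 11.33 in knockouts 1 to 5, against 10.67, 10.80, 10.62, 10.80 and 10.87 in controls 1 to 5. Every knockout exceeded every control, knockout 5 included, and both groups were tight. The means were 11.26 ± 0.10 in knockouts and 10.75 ± 0.10 in controls (SD, n = 5 each), a 1.42-fold rise (log2 difference 0.51, SE 0.06, limma adjusted p = 4.77e-04). In bulk tissue, more RNA per cell and more cells of a type cannot be told apart, here and below.

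Slc38a4 (SNAT4), a sodium-coupled carrier of small neutral amino acids best known from liver, showed the largest rise of the members past the threshold. It lies on chromosome 15 at 96994816 to 97055956. Knockouts 1 to 5 measured 7.25, 7.21, 6.74, 6.82 and 6.44, against 6.10, 6.33, 6.35, 6.22 and 6.24 in controls 1 to 5. All knockouts lay above all controls, but they were spread widely, with knockouts 1 and 2 high and knockout 5 only just above the highest control. The means were 6.89 ± 0.34 in knockouts and 6.25 ± 0.10 in controls (SD, n = 5 each), 1.56-fold higher (log2 difference 0.64, SE 0.13, limma adjusted p = 0.0113). Without knockout 5 the log2 difference was 0.76. The signal was modest, with 74.6% of the negative controls below the control mean.

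The other carriers of systems A and N did not pass. Slc38a1 and Slc38a2, the system A transporters adjacent on chromosome 15, differed by -0.04 and 0.11, and Slc38a5, a relative of Slc38a3, was below the negative controls in both groups. The remaining Slc38 members, among them the lysosomal arginine sensor Slc38a9 (0.06) and the lysosomal glutamine exporter Slc38a7 (-0.02), lay between -0.12 and 0.06. Of these, Slc38a10 (-0.12) was past the threshold without knockout 5 and after quantile normalisation.

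Slc7a2 (CAT2), a uniporter of arginine, lysine and ornithine that supplies arginine to activated macrophages, rose in the knockouts. It lies on chromosome 8 at 40862341 to 40922070. Its values were 7.40, 7.45, 7.50, 7.21 and 7.22 in knockouts 1 to 5, against 6.92, 7.07, 6.95, 7.07 and 6.95 in controls 1 to 5. The groups did not overlap, and knockouts 4 and 5 were the lower pair. The knockout mean was 7.36 ± 0.13 and the control mean 6.99 ± 0.07 (SD, n = 5 each), a 1.29-fold rise (log2 difference 0.36, SE 0.06, limma adjusted p = 0.00457). The other cationic transporters, Slc7a1 (0.12), Slc7a3 (-0.08), Slc7a4 (0.03) and the related Slc7a14 (-0.03), did not pass.

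Markers of mononuclear phagocytes were higher in the knockouts as well. All 17 measured rose (background 5.35%), and their mean level was 7.29 to 8.02 in knockout kidneys and 6.64 to 6.91 in control kidneys. Over knockouts 1 to 5 it was 7.95, 7.85, 8.02, 7.48 and 7.29, so knockouts 4 and 5 had the lowest marker levels as well as the lowest Slc7a2 values. The 11 fibroblast and matrix genes had the same pair lowest, with mean levels of 8.83, 9.06, 9.10, 8.42 and 8.34 in knockouts 1 to 5. The controls did not share this order, with mean phagocyte marker levels of 6.91, 6.76, 6.77, 6.64 and 6.74 in controls 1 to 5. Control 1 had the highest marker level and the lowest Slc7a2 value (6.92), and control 4 the lowest marker level with Slc7a2 at 7.07. None of the markers of either list was below the negative controls in both groups, and their part in the rise of Slc7a2 was not tested.

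**Figure D2:**
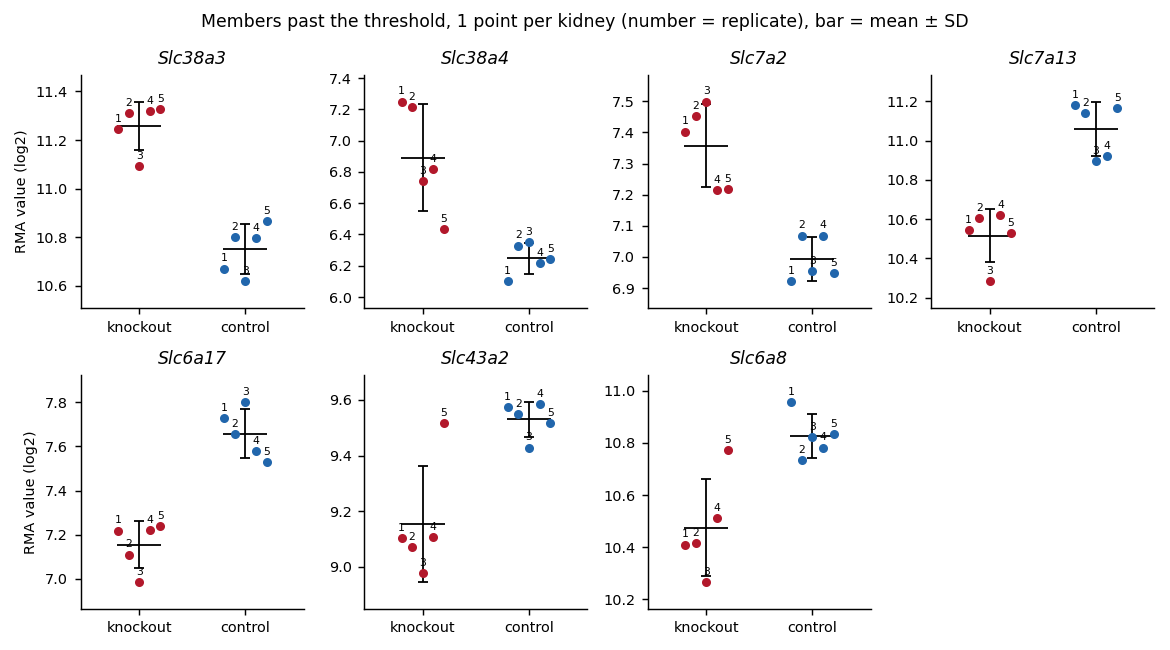
RMA values (log2) of the 7 members past the threshold, with 1 point for each of 5 knockout and 5 control kidneys, the replicate number above it, and a bar for the mean ± SD. The groups are apart for Slc38a3, Slc38a4, Slc7a2, Slc7a13 and Slc6a17, while knockout 5 reaches the controls for Slc43a2 and Slc6a8.

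Slc7a13 (AGT1), a carrier of cystine, aspartate and glutamate in the brush border of the last proximal tubule segment, had the largest fall. It lies on chromosome 4 at 19818727 to 19842213. Knockouts 1 to 5 measured 10.54, 10.60, 10.28, 10.62 and 10.53, against 11.18, 11.14, 10.90, 10.92 and 11.16 in controls 1 to 5. The groups did not overlap and knockout 3 was lowest. The knockout mean was 10.52 ± 0.14 and the control mean 11.06 ± 0.14 (SD, n = 5 each), which differed on the log2 scale by -0.54 (SE 0.08, limma adjusted p = 0.00141). Knockouts thus had 68.6% of the control level (95% interval 61.1% to 76.9%).

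Its partners in the brush border did not pass. Slc3a1 (rBAT), the heavy chain bound by Slc7a13 and Slc7a9, measured 12.48 ± 0.06 in knockouts and 12.44 ± 0.04 in controls (SD, n = 5 each), with an interval of 96.6% to 109% of the control level. Slc7a9, the light chain for cystine and dibasic amino acids, differed by -0.01 (95% interval -0.17 to 0.15). Slc1a1 (EAAC1), the brush border carrier of glutamate and aspartate, measured 10.69, 10.68, 10.41, 10.76 and 10.95 in knockouts 1 to 5, against 11.01, 10.82, 11.01, 10.93 and 10.91 in controls 1 to 5. Knockout 5 lay among the controls and the other knockouts below them. The log2 difference was -0.24 (SE 0.08, limma adjusted p = 0.0948), and -0.30 without knockout 5 (adjusted p = 0.0164).

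The sodium-coupled carriers of neutral and imino acids in the brush border did not pass. Slc6a19 (B0AT1), the main carrier of neutral amino acids, measured 10.19, 10.47, 10.38, 10.52 and 10.73 in knockouts 1 to 5, against 10.60, 10.72, 10.61, 10.68 and 10.59 in controls 1 to 5. Knockout 5 was the highest of all 10 kidneys, whereas the other knockouts lay below every control. The log2 difference was -0.18 (95% interval -0.36 to -0.01, limma adjusted p = 0.191). Its neighbour Slc6a18 (B0AT3), a carrier of glycine and alanine that begins 1721 bases away on chromosome 13, differed by 0.12 (95% interval -0.01 to 0.26).

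In the Slc6a20 pair, Slc6a20b just missed the threshold (-0.22, SE 0.06, limma adjusted p = 0.0531) and the adjacent Slc6a20a, an imino acid carrier, differed by 0.00 (SE 0.05). These genes are close relatives, so probes that read both would make the value of each uncertain. Slc6a15 (B0AT2), a carrier of proline and branched-chain amino acids, differed by -0.21, and the glycine and proline carrier Slc36a2 by 0.24, and neither passed. Slc6a19 and Slc6a20b were past the threshold without knockout 5, and Slc6a20b also after quantile normalisation, with array weights and without dim genes.

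Slc43a2 (LAT4), a uniporter that lets large neutral amino acids such as leucine and phenylalanine leave the tubule cell, fell. It lies on chromosome 11 at 75529915 to 75577575. Knockouts 1 to 5 measured 9.10, 9.07, 8.98, 9.11 and 9.52, against 9.57, 9.55, 9.43, 9.58 and 9.52 in controls 1 to 5. Knockouts 1 to 4 lay below every control, while knockout 5 lay inside the control range. The knockout mean was 9.16 ± 0.21 and the control mean 9.53 ± 0.06 (SD, n = 5 each), which differed on the log2 scale by -0.38 (SE 0.08, limma adjusted p = 0.0165). Without knockout 5 it was -0.47 (adjusted p = 0.000102).

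The exchangers that share the basolateral membrane did not pass. Slc7a8 (LAT2) and Slc7a7 (y+LAT1), light chains for neutral and for cationic amino acids, differed by -0.10 (95% interval -0.31 to 0.10) and -0.01 (95% interval -0.24 to 0.23). Their heavy chain Slc3a2 (4F2hc) measured 10.67, 10.71, 10.69, 10.74 and 10.86 in knockouts 1 to 5, against 10.66, 10.62, 10.62, 10.72 and 10.62 in controls 1 to 5. The groups overlapped through control 4, and the log2 difference was 0.09 (SE 0.04, limma adjusted p = 0.252). Slc7a5 (LAT1) differed by -0.10, Slc7a6 (y+LAT2) by -0.00 and the Slc43a2 relative Slc43a1 (LAT3) by 0.08.

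Slc6a8, the creatine transporter, fell in the knockouts. It lies on the X chromosome at 73673133 to 73682502. Knockouts 1 to 5 measured 10.41, 10.42, 10.27, 10.51 and 10.77, against 10.96, 10.73, 10.82, 10.78 and 10.83 in controls 1 to 5. Knockouts 1 to 4 lay below every control and knockout 5 overlapped only the lowest control. The knockout mean was 10.47 ± 0.19 and the control mean 10.83 ± 0.08 (SD, n = 5 each), which differed on the log2 scale by -0.35 (SE 0.08, limma adjusted p = 0.0184). Without knockout 2 the difference was -0.34 and no longer passed (adjusted p = 0.0521), and without knockout 5 it was -0.43 (adjusted p = 0.000812). Gatm, which makes the precursor of creatine in the kidney, also fell (log2 difference -0.25, adjusted p = 0.0373).

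The osmolyte carriers did not pass. Slc6a6, the taurine transporter, differed by 0.04 (SE 0.05). Slc6a12 (BGT1), the betaine transporter of the renal medulla, missed the threshold narrowly (-0.27, SE 0.08, limma adjusted p = 0.0502). Its knockout values of 6.02 to 6.26 overlapped the control values of 6.16 to 6.53 only through control 5, and it was past the threshold without that kidney, without dim genes, without the trend and with the replicate number as a block. Slc6a13, a GABA and taurine carrier 4852 bases from it on chromosome 6, differed by -0.03. None of 5 measured genes of the NFAT5 tonicity response passed by limma, which in so short a list is near the 8.03% of all genes. Unadjusted p was under 0.05 for 1 higher and 1 lower. A single gene rose without knockout 5 or with the replicate number as a block. Akr1b1, Akr1b3 and Slc5a3 of the same list were not analysed.

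Slc6a17 (NTT4), which loads neutral amino acids into synaptic vesicles of neurons, had the largest fall of the Slc6 family. It lies on chromosome 3 at 107467548 to 107518018. Knockouts 1 to 5 measured 7.22, 7.11, 6.99, 7.22 and 7.24, against 7.73, 7.66, 7.80, 7.58 and 7.53 in controls 1 to 5. Every knockout lay below every control, with the highest knockout well under the lowest control. The knockout mean was 7.16 ± 0.11 and the control mean 7.66 ± 0.11 (SD, n = 5 each), which differed on the log2 scale by -0.50 (SE 0.06, limma adjusted p = 7.90e-04), or 70.5% of the control level (95% interval 64.0% to 77.7%). Of 10 markers of neurons and glia, 0 passed by limma in either direction (8.03% of all genes did), and 1 fell with the replicate number as a block. In a list this short, 0 is near that background. Unadjusted p was under 0.05 for 0 higher and 1 lower, the water channel Aqp4, which is not particular to these cells. The mean level of the 10 markers was 5.32 to 5.43 in knockouts and 5.38 to 5.51 in controls, and 4 of the 10 were below the negative controls in both groups.

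**Figure D3:**
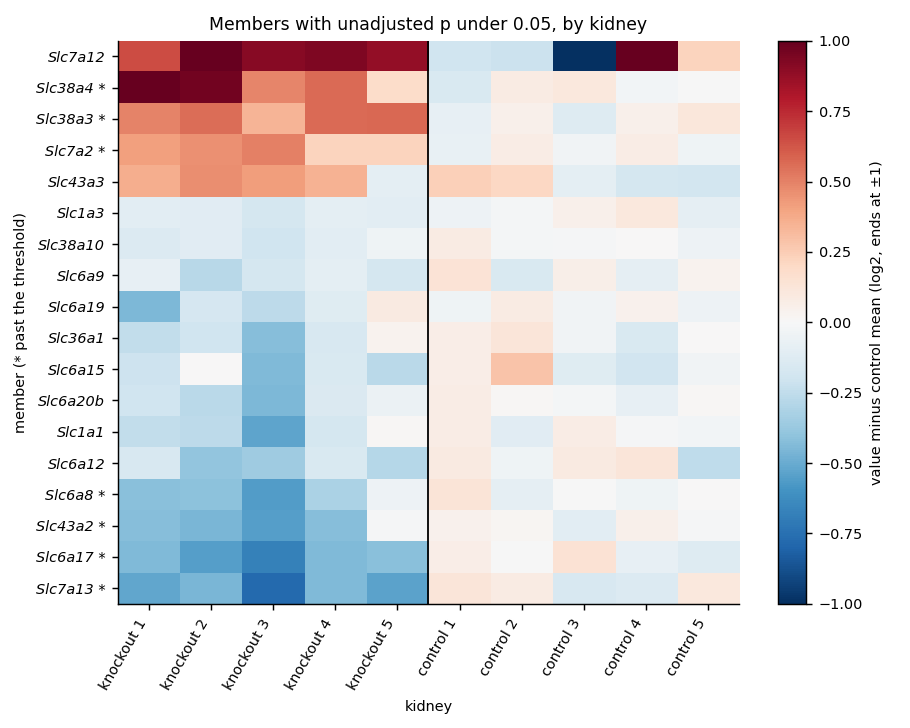
Value of each kidney minus the control mean (log2, colour scale ending at ±1) for the members with an unadjusted p under 0.05, 5 higher and 13 lower, with knockout kidneys on the left and control kidneys on the right. Knockout 3 is the deepest blue for most of the lower members, and knockout 5 is close to white for Slc43a2, Slc6a8, Slc1a1 and Slc36a1.

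Slc7a12 (Asc-2), a carrier of small neutral amino acids, had the largest difference of all 62 members yet did not pass, and is named here after its values were seen. It measured 9.94, 10.52, 10.19, 10.22 and 10.16 in knockouts 1 to 5, against 9.09, 9.07, 7.97, 10.80 and 9.51 in controls 1 to 5. The knockouts lay closer together than the controls, which ran from control 3, the lowest kidney, to control 4, the highest. The SD was 0.21 in knockouts and 1.02 in controls. The other members had a median SD of 0.10 in knockouts (highest 0.34) and of 0.09 in controls (highest 0.30). The log2 difference was 0.92 (SE 0.38, limma adjusted p = 0.163), and 1.30 without control 4 (adjusted p = 0.00975). In mouse kidney Slc7a12 is known to be higher in females and Slc7a13 in males. All 10 kidneys, control 4 included, showed the male pattern of low Xist and high Uty. Xist measured 4.05 to 4.23 in knockouts and 4.14 to 4.22 in controls. Uty measured 8.12 to 8.21 in knockouts and 8.12 to 8.32 in controls.

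Slc36a1 (PAT1), a proton-coupled carrier that moves small amino acids out of lysosomes, measured 8.81, 8.85, 8.63, 8.89 and 9.09 in knockouts 1 to 5, against 9.12, 9.17, 9.02, 8.90 and 9.06 in controls 1 to 5. Knockouts 1 to 4 lay below every control, and knockout 5 lay among them. The log2 difference was -0.20 (SE 0.08, limma adjusted p = 0.139), and -0.26 without knockout 5 (adjusted p = 0.0271). Slc43a3 differed by 0.30 (adjusted p = 0.137), and was past the threshold without knockout 5, with array weights and with the replicate number as a block. The neutral exchangers Slc1a4 (ASCT1) and Slc1a5 (ASCT2) differed by 0.06 and -0.06.

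**Figure D4:**
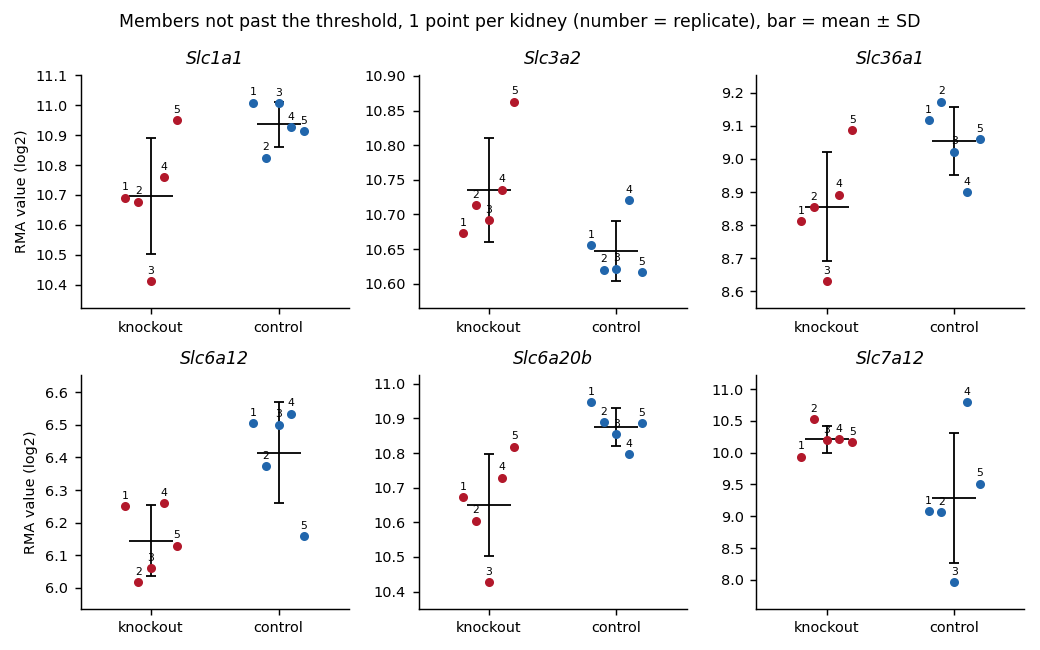
RMA values (log2) of 6 members that did not pass, with 1 point for each of 5 knockout and 5 control kidneys, the replicate number above it, and a bar for the mean ± SD. Control 4 of Slc7a12 stands above every knockout at 10.80, and knockout 5 lies within the control range for Slc1a1 and Slc36a1.

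The carriers known chiefly from brain and retina, with those for monoamines, did not pass. They included the glutamate transporters Slc1a2, Slc1a3, Slc1a6 and Slc1a7, which lay between -0.12 and -0.06, and the monoamine carriers Slc6a2, Slc6a3 and Slc6a4, between -0.15 and -0.02. In all, 9 members were below the median negative control in both groups, so no change of theirs could be seen here: Slc38a5, Slc38a11, Slc6a5, Slc6a14, Slc6a16, Slc7a3, Slc7a11, Slc7a14 and Slc7a15. Slc7a11 (xCT) is the cystine and glutamate exchanger that ATF4 and NRF2 induce under stress. Of members next to each other on a chromosome, 9 pairs lay within 200 kb, and 0 of these pairs held a member past the threshold.

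Genes that use the transported amino acids moved in both directions. Of 28 measured genes of amino acid breakdown and synthesis, 4 rose, 5 fell and 19 did not pass (background 5.35% and 2.67%), with a median log2 difference of -0.14. Arg2, the mitochondrial arginase that splits arginine into ornithine and urea, rose 2.07-fold (9.39 ± 0.24 in knockouts and 8.34 ± 0.29 in controls, SD, n = 5 each, limma adjusted p = 9.74e-04). Hpd, an enzyme of tyrosine breakdown, rose 1.81-fold (adjusted p = 0.00820), with 10.28 ± 0.19 in knockouts and 9.42 ± 0.42 in controls.

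The genes of branched-chain amino acid breakdown were split. Bckdhb, a subunit of the branched-chain ketoacid dehydrogenase, fell to 8.62 ± 0.15 in knockouts, against 9.31 ± 0.10 in controls (log2 difference -0.69, SE 0.07, limma adjusted p = 2.40e-04). Bckdha (-0.26) and the mitochondrial aminotransferase Bcat2 (-0.30) also fell, while the cytosolic aminotransferase Bcat1 rose 1.34-fold (adjusted p = 0.0355). Dao (0.25), which breaks down D-amino acids, and Oat (-0.21), which uses ornithine, complete the calls with Gatm. All calls other than Arg2, Hpd, Bckdhb and Bcat1 are named after their values were seen. The count of falls was 15 without knockout 5, 3 without control 4, knockout 1 or knockout 3, and 2 without control 1, control 3 or knockout 2. The count of rises was 2 without control 3 or without knockout 4.

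**Figure D5:**
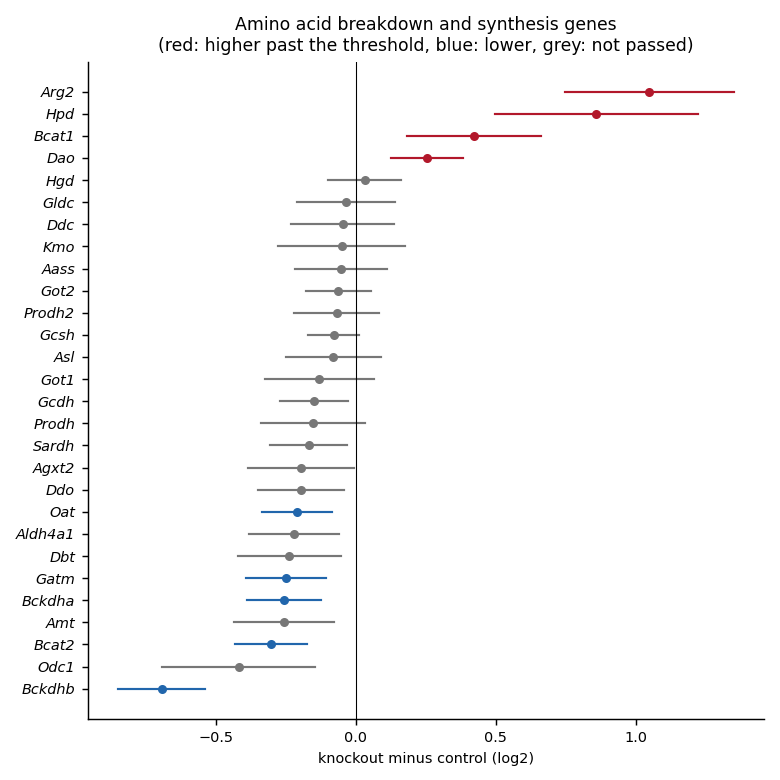
Difference between knockout and control kidneys (knockout minus control, log2) with its 95% interval for the 28 measured genes of amino acid breakdown and synthesis. Arg2 (1.05) and Hpd (0.86) lie at the top in red, and Bckdhb (-0.69) at the bottom in blue.

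The ATF4 response to amino acid shortage, which raises several of these transporters, showed no member past the threshold. Of 26 measured genes 0 passed by limma, against 8.03% of all genes (unadjusted p under 0.05 for 2 higher and 3 lower). The median difference was -0.01. A single gene rose without control 4 or without knockout 5, and a single gene fell without control 2 or after quantile normalisation. Among 16 other carriers of amino acids and peptides and their partners, 0 rose and 1 fell. This share of 6.25% was near the 8.03% of all genes. The gene that fell was the peptide transporter Slc15a1 (log2 difference -0.22, limma adjusted p = 0.0203). Its signal was dim, with a control mean above 57.7% of the negative controls, and it did not pass without control 5 or without knockout 1, 2 or 3. Without knockout 5, 1 of the 16 rose.

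Markers of cell types moved beside these genes, against a background over all genes of 5.35% higher and 2.67% lower. Of 22 proximal tubule genes 0 rose and 6 fell, Gatm among them, and their mean level was 11.76 to 12.01 in knockouts and 11.92 to 12.11 in controls. Of 15 genes of the thick ascending limb, distal tubule and collecting duct 2 rose and 9 fell, with mean levels of 9.94 to 10.10 in knockouts and 10.24 to 10.34 in controls. The 2 rises, named after their values were seen, were the water channel genes Aqp2 (log2 difference 0.94) and Aqp3 (0.54). Of 11 fibroblast and matrix genes 10 rose and 0 fell, with 8.34 to 9.10 in knockouts and 7.38 to 7.68 in controls. Of 12 T, B and NK cell genes 2 rose and 0 fell (1 rose without knockout 1, 2 or 3), and of 10 endothelial genes 0 passed by limma (unadjusted p under 0.05 for 1 higher and 1 lower). A single endothelial gene fell without knockout 2 or after quantile normalisation. The part of these shifts in the transporter differences was not tested.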

How the data were processed

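RNA of 10 whole kidneys, 5 knockout and 5 control, was measured on 1 array each. The deposited values are log2 expression values made by RMA on build mm10, per the submitters' processing notes. The sources used here do not give software versions or filters. The log2 scale was read from the range of the values.

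Of 72688 rows, 30604 had a single symbol, 2146 several and 39938 none, and those without a single symbol were left out. Symbols of 827 rows were updated through Entrez identifiers. Rows of 1 gene were averaged, giving 30142 genes, and Slc6a9 was the member with 2 rows. Coordinates and promoters are from RefSeq (GRCm38.p6, the mm10 assembly).

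Knockouts and controls were compared with limma 3.58.1 in R 4.3.3 (lmFit, eBayes with a mean-variance trend) without covariates, and p-values were adjusted over all genes by the Benjamini-Hochberg method. The fit was tested on simulated data. A gene was called below the negative controls when both group means exceeded less than 50% of 5222 negative control probe sets. The number of arrays limits the precision. Tables and plots were made with Python 3.11.15, pandas 2.3.3 and matplotlib 3.10.9.

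The members, the 11 gene lists and the tests were chosen with earlier results of these data known. Members past the threshold were named, with the member of smallest p in each family that had none, and up to 4 genes of each list. Other members given by value were chosen by their role, with their values seen. Samples of the same replicate number were not treated as pairs, since the labels do not say that the number marks a litter or day. Their deviations from the group means correlated at -0.08 to 0.31. For knockouts 1, 2, 3 and 5 the best match was the control of the same number, so a shared origin is not excluded. Alternatives were quantile normalisation, no trend, no dim genes, the brightest row, array weights, the replicate number as a block, and each kidney left out in turn.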

Additional observations from a re-analysis of the deposited data

Results flagged for a closer look

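Among the 10 members named by rule and Slc7a12, 22 groups of 5 kidneys were examined for a kidney far from the rest, of which chance alone marks about 5%. A kidney stood apart where its gap to the nearest of the others exceeded 0.71 of the range of its group. Knockout 3 stood below the other knockouts for Slc7a13 (10.28, gap 0.724 of the range), and knockout 5 stood above the other knockouts for Slc43a2 (9.52, gap 0.761 of the range).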

How the results depend on the processing

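Of the 7 members past the threshold, Slc38a3, Slc38a4, Slc7a2, Slc7a13, Slc6a17 and Slc43a2 passed under all 16 alternatives, and Slc6a8 under 15, failing without knockout 2. None of the 7 changed direction. The count of higher members was 3 to 4 over all alternatives. The count of lower members was 7 after quantile normalisation, which added Slc1a1, Slc38a10 and Slc6a20b, and it ranged from 3 to 9 with a kidney left out, highest without knockout 5; the cause was not tested. Leaving out dim genes gave 6 lower members among 52 tested. Over all genes, 2420 passed, against 1526 to 3412 with a kidney left out, lowest without knockout 2, with 1610 without control 3 and 1588 without knockout 3. With the replicate number as a block, 4 members were higher and 5 lower and 2781 genes passed in all, Slc43a3 and Slc6a12 being added, and knockouts 1, 2, 3 and 5 correlated best with the control of their own number. Among genes of amino acid breakdown and synthesis, 8 fell with array weights, against 5. Members below the negative controls could not show a change, and differences of a few hundredths lie within the errors of 5 arrays a group.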

Other observations

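Transcript rows outside the comparison gave values without a test. The row that carries the names Gm13872 and Slc1a2 measured 3.86 ± 0.12 in knockouts and 3.94 ± 0.08 in controls (SD, n = 5 each), and the row of the antisense gene Slc36a1os measured 4.55 ± 0.11 in knockouts and 4.58 ± 0.10 in controls. The row of the antisense gene Slc6a19os measured 4.72 ± 0.09 in knockouts and 4.86 ± 0.11 in controls. The groups overlapped in each. The 2 rows averaged for Slc6a9, a glycine transporter, lay far apart, at 8.50 to 8.61 in knockouts and 8.45 to 8.73 in controls for one row, and 4.58 to 5.05 in knockouts and 4.86 to 5.29 in controls for the other.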
